A study of Mus musculus with 12 samples.

Results

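The genes described here encode the enzymes, regulators, transporters and receptors of sphingolipid and ceramide metabolism. They were chosen by name, as 43 rows of a table of 35999 genes measured in LSK cells, the lineage-negative, Sca-1-positive, KIT-positive fraction of mouse bone marrow that holds hematopoietic stem cells and multipotent progenitors. The rule itself used no measured value, and the 43 genes were ordered into 7 branches by the step of the pathway at which they act. A library was made from each of 12 mice, 6 of genotype WT and 6 of genotype FancgKO, called KO below. The KO mice are Fancg-/- and lack a subunit of the Fanconi anemia core complex, which acts in the repair of DNA interstrand crosslinks. No treatment is given for either group, and age, sex and littermates are not given in the sources used here. The study set the genotypes side by side to ask how transcription in stem and progenitor cells differs when the Fanconi anemia pathway is disrupted.

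Ceramide is the hub of sphingolipid metabolism. It is built from serine and a fatty acyl-CoA in the endoplasmic reticulum, or released from complex sphingolipids in the lysosome, and can be turned into sphingomyelin, glucosylceramide, ceramide 1-phosphate or sphingosine. Ceramide is widely linked to growth arrest and cell death, whereas sphingosine 1-phosphate favours survival and, through its receptors, guides hematopoietic cells between marrow, blood and lymph.

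The deposited unit, called signal here, appears from its name and values to be an estimated count scaled by 1 factor per library. Totals of signal lay between 1576081 and 2672915 per library, and the spacing of the low values gave an approximate depth of 1235110 to 2471417 reads. The 15 highest genes took 49.0% to 57.1% of the signal of a library. At this depth a member near the filter rests on few reads. Asah1 rested on about 14.3 to 36.4 reads per library and Cers6 on about 5.90 to 49.3, so the spread between mice includes counting error. Transcripts of the sorting marker Kit were high, at a signal of 283 to 435, and so were those of Cd34, at 528 to 728. Those of Ly6a, which encodes Sca-1, were low, at 4.84 to 17.4. Over the 8 LSK and progenitor markers the summed signal ran from 2069 to 2788 in WT and from 1900.0 to 2503 in KO. Of the 8, 1 had an unadjusted p under 0.05 (limma), beside 3.67% of all genes tested. It was Flt3, lower in KO, with overlapping groups (limma, adjusted p = 0.9996; two-sided exact permutation test, p = 0.0628). The 7-gene granulocyte list summed to between 263 and 1922. Of its genes, S100a8, S100a9, Ngp, Ltf and Camp, which mark maturing neutrophils, were at or near 0 (the highest value was 2.54, for S100a9), whereas Elane was at 6.02 to 269.9 and Mpo at 255 to 1650.0. Elane and Mpo encode proteins of the primary granules and are also transcribed in myeloid progenitors. The 7 monocyte and macrophage markers summed to between 81.3 and 200.4, the 7 erythroid markers to between 6.20 and 31.8, the 7 lymphoid markers to between 44.9 and 87.1, and the 6 endothelial and stromal markers to between 12.4 and 59.8. Few genes of these 5 lists of other cell types had the mean signal of 10 needed for a test. They were 2 granulocyte, 3 monocyte and macrophage, 0 erythroid, 2 lymphoid and 1 endothelial and stromal genes. None of those tested had an unadjusted p under 0.05, and the erythroid list was not tested at all. In sorted bulk samples, fewer cells of a type and less RNA per cell cannot be told apart. Fancg itself had a signal of 4.76, 8.59 and 24.1 in WT (lowest, median, highest) and 4.46, 7.91 and 14.5 in KO, and did not separate the genotypes (mean difference -0.20 on the log2 scale, two-sided exact permutation test, p = 0.636). Directions below are therefore those between the libraries that carry the KO and the WT label. WT replicate 3 and KO replicate 7 stood apart in the summed signal of 4 Y-linked genes, at 26.6 and 49.7 against 189 to 435 in the other 10 libraries.

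All 43 members were above 0 in at least some libraries, and 36 passed the filter, a mean signal over the 12 libraries of 10 or more. Sptlc1, Sphk1, S1pr2, Sgms2, Smpd2, B4galt5 and St3gal5 did not. Levels of different genes were compared per kb of annotated exon. The lysosomal cofactor Psap, the precursor of the saposins, had the highest level per kb, with a median of 83.6 over the 12 libraries. It was followed by the activator protein Gm2a (49.3 per kb), by Sptssa, the small subunit that raises the activity of serine palmitoyltransferase (41.8 per kb), by the hexosaminidase subunit Hexa (28.1 per kb) and by the lysosomal galactosidase Glb1 (20.3 per kb). Lowest were Sgms2 (0.019 per kb), B4galt5 (0.31 per kb), S1pr2 (0.37 per kb) and Sphk1 (0.44 per kb).

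**Figure D1:**
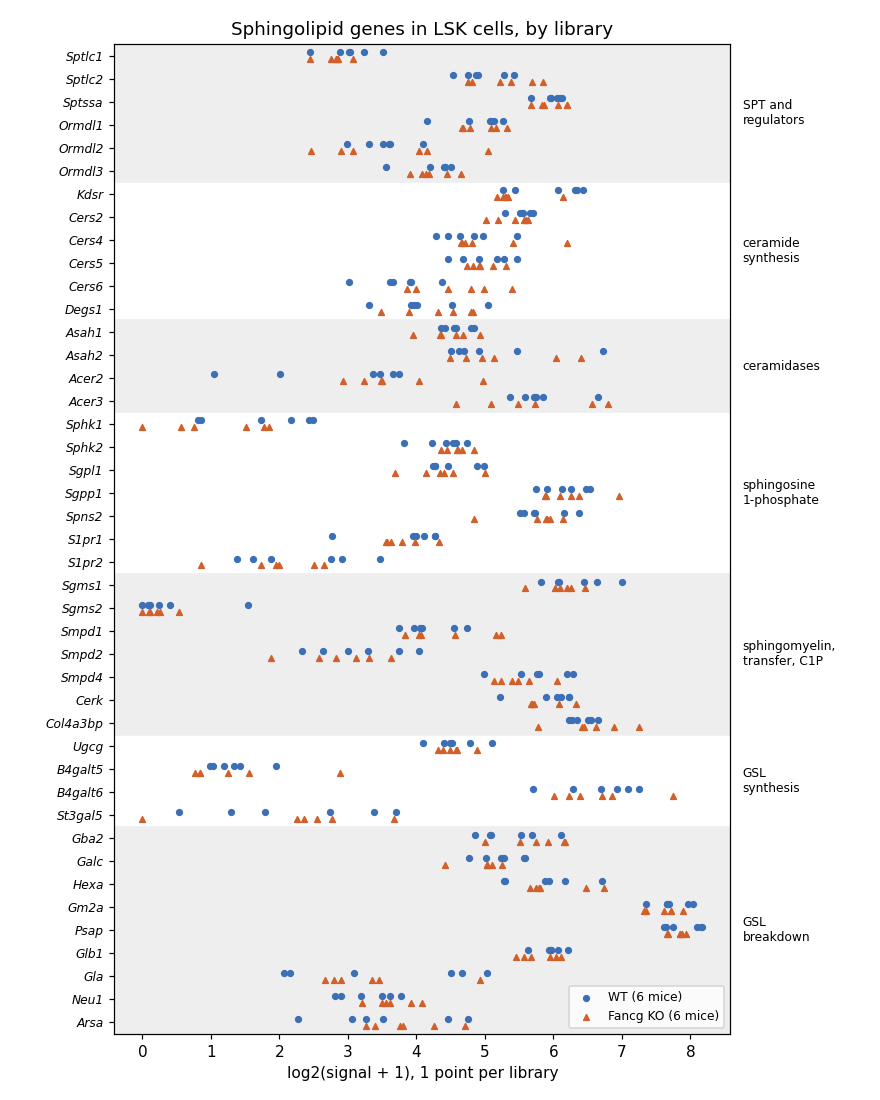
Signal of the 43 members on the log2(signal + 1) scale (horizontal axis, arbitrary log2 units), with 1 point per library, circles for 6 WT mice and triangles for 6 KO mice, and members ordered by branch (SPT, serine palmitoyltransferase; C1P, ceramide 1-phosphate; GSL, glycosphingolipid). WT and KO points overlap for every member.

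Where several related genes can carry out a step, the LSK libraries mostly held transcripts of the same relative. Sphingosine kinases make sphingosine 1-phosphate, and Sphk2 was above Sphk1 in 12 of 12 libraries (medians 5.44 and 0.44 per kb). The sphingomyelin synthase of the Golgi, Sgms1, was above that of the plasma membrane, Sgms2, in 12 of 12 (6.61 and 0.019 per kb). Of the enzymes that turn glucosylceramide into lactosylceramide, B4galt6 was above B4galt5 in 12 of 12 (17.7 and 0.31 per kb). Of both sphingosine 1-phosphate receptors among the members, S1pr1, which governs egress of lymphoid and progenitor cells, was above S1pr2 in 12 of 12 (4.81 and 0.37 per kb). Neither was the leading receptor, since S1pr4 (9.14 per kb) was above S1pr1 in 11 of 12 libraries and S1pr3 (5.71 per kb) in 10 of 12. Outside such families, the phosphatase Sgpp1 was above the lyase Sgpl1, which acts on sphingosine 1-phosphate by another reaction, in 12 of 12 (12.8 and 3.20 per kb). The orders within these member pairs were the same in every library with the longest annotated transcript as the length.

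Ceramide synthases attach acyl chains of different length to the sphingoid base. Cers2, which makes very-long-chain ceramides, and Cers5, which like Cers6 makes ceramides with a palmitoyl chain, had the highest medians (12.5 and 8.29 per kb). Cers4 had a median of 2.14 and Cers6 of 1.64 per kb, and both Cers2 and Cers5 were above each of them in 12 of 12 libraries. Cers2 was above Cers5 in 9 of 12 libraries, and in 12 of 12 by the longest transcript. Among the ceramidases, which release sphingosine from ceramide, the lysosomal acid ceramidase Asah1 led with a median of 6.67 per kb. It was above the neutral ceramidase Asah2 (2.55 per kb) in 10 of 12 libraries and above the alkaline ceramidase Acer3 (3.37 per kb) in 11 of 12, or in 9 of 12 by the longest transcript. The order of the serine palmitoyltransferase inhibitors Ormdl1 and Ormdl3 turned with the length used: Ormdl1 was higher in 2 of 12 libraries per kb of exon and in 10 of 12 by the longest transcript.

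**Figure D2:**
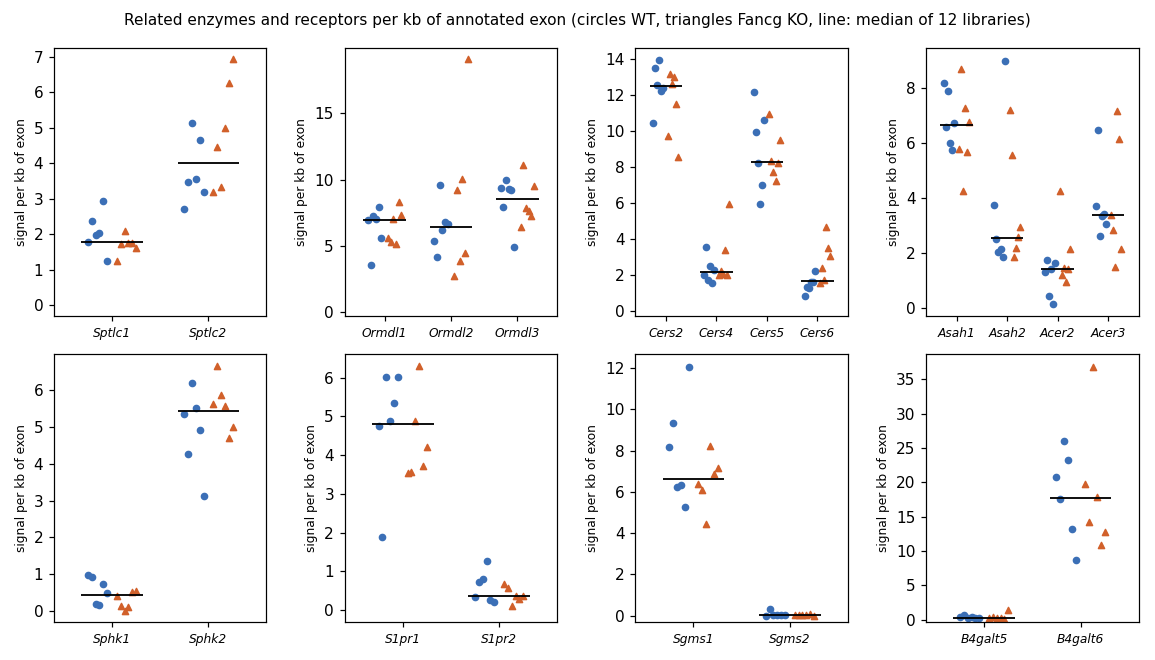
Signal per kb of annotated exon (vertical axis of each panel) for 8 groups of related members, with 1 circle per WT library, 1 triangle per KO library and a line at the median of the 12 libraries. Sphk2, S1pr1, Sgms1 and B4galt6 each lie above their relative in all 12 libraries.

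KO and WT were compared with limma on log2(signal + 1) over 8887 genes. The added 1 shrinks the fold change of genes with low signal. Fold changes are given as log2, KO relative to WT. No member passed the adjusted threshold of 0.05. The smallest adjusted p of a member was 0.9996, and 0 of the 8887 genes passed (0%). At an unadjusted p under 0.05 there were 2 of the 36 members tested (5.56%), beside 3.67% of all genes tested. Cers6 was the 1 member higher in KO (2.78%, beside 1.98% of all genes in that direction) and Kdsr the 1 member lower in KO (2.78%, beside 1.69%). These shares rest on 1 gene each and lie near the background. No member had non-overlapping groups, beside 0.0900% of all genes tested. With 17 members higher and 19 lower in KO, the median log2 fold change was -0.01, and over all genes tested it was 0.0031. Rescaling the libraries to equal totals moved this split to 21 higher of 36 (58.3% in place of 47.2%), with the median of all genes at 0.08. As 1 library stands for 1 mouse, the p values set the difference between genotypes against the spread between mice. In limma that spread is moderated by the spread of all genes tested.

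**Figure D3:**
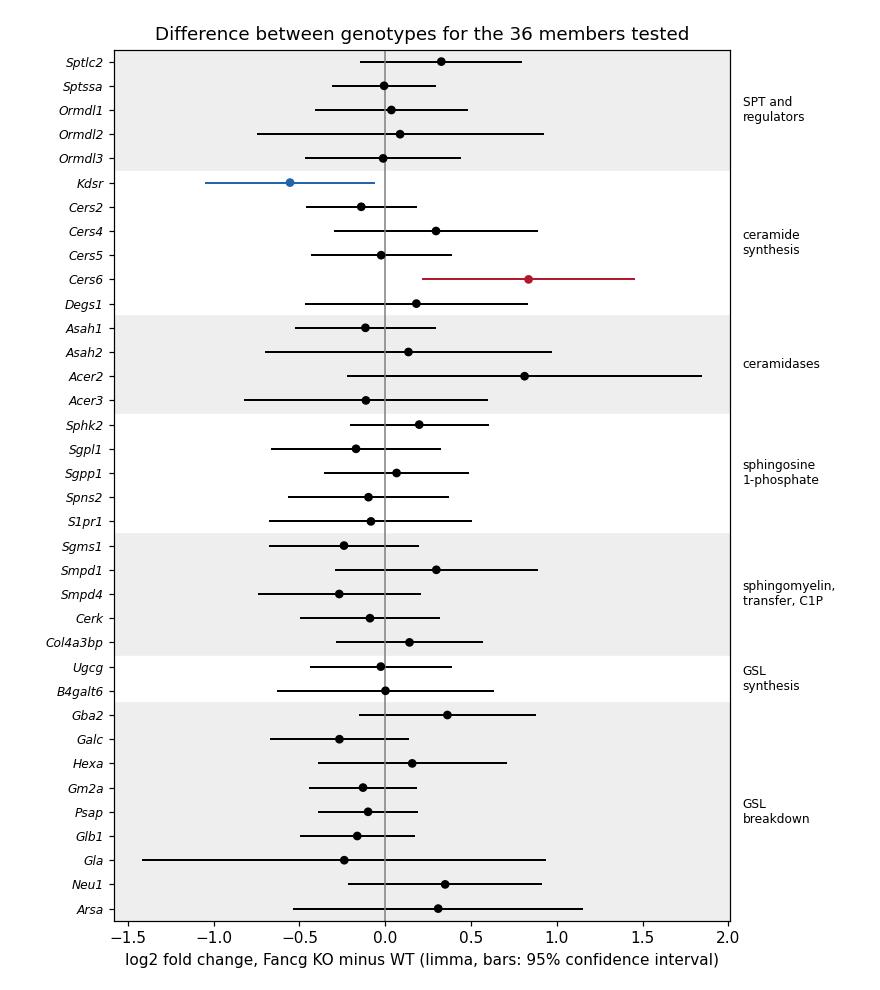
Log2 fold change of KO relative to WT from limma (horizontal axis) with its 95% confidence interval for the 36 members tested, ordered by branch. Cers6 (red) and Kdsr (blue) have an unadjusted p under 0.05, and the intervals of the other 34 include 0.

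The promoters of both genes are shown because these 2 members had the smallest unadjusted p, and that of Gla, the lysosomal alpha-galactosidase, because it was the only member, of the 40 with a promoter, that held the core motif of lysosomal genes. Sequences are from RefSeq, build GRCm38.p6, which held a promoter for 40 of the 43 members. They are written in the direction of the gene and end just before the RefSeq start site for Cers6 and Kdsr. For Gla the stretch ends just before the GENCODE start site, 120 bases short of the RefSeq one. Capitals mark the E-box core CACGTG. The windows are chr2:68861191-68861440 on the plus strand for Cers6, chr1:106759743-106759992 on the minus strand for Kdsr and chrX:134601126-134601255 on the minus strand for Gla.
Cers6: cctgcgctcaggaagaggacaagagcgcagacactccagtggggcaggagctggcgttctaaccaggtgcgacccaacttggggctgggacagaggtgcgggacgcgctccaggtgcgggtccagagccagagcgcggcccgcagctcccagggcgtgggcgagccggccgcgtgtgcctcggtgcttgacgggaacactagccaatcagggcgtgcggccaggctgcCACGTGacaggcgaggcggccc
Kdsr: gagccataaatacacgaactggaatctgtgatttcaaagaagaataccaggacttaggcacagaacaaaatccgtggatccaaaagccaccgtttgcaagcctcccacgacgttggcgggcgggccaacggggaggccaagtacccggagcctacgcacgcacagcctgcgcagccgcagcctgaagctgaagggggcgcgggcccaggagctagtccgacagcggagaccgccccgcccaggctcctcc
Gla: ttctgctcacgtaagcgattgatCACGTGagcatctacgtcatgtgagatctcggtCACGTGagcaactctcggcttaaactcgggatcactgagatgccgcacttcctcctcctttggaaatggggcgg
Counted from the RefSeq start site, the E-box begins at base -22 in Cers6 and at bases -227 and -194 in Gla (-107 and -74 from the GENCODE start site), and the Kdsr window holds none. In RefSeq windows from 250 bases before to 50 after the start site, the palindrome CACGTG was found in 9 of 40 member genes (22.5%), namely Arsa, Cers2, Cers6, Degs1, Gla, Glb1, Sgms2, Smpd2 and Sphk1, and in 8.09% of all genes with a promoter. Counted by promoter, the shares were 17.9% of 56 and 7.15% of 32851. The longer palindrome TCACGTGA, the core of the CLEAR motif found before many lysosomal genes and itself containing CACGTG, was in 1 of 40 member genes, Gla, and in 1.12% of all genes. These are matches of letters, and no binding was measured.

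The first step of ceramide synthesis is catalysed by serine palmitoyltransferase. Its catalytic subunit Sptlc2 had a signal of 22.1, 28.6 and 41.8 in WT (lowest, median, highest) and 26.0, 38.4 and 56.4 in KO. The 2 highest libraries were both KO, but the groups overlapped, and the log2 fold change was 0.33 ± 0.22 (SE; limma, unadjusted p = 0.162). The partner subunit Sptlc1 was below the filter, at a signal of 4.43 to 10.4. Sptssa was among the steadiest members, with 49.9, 63.5 and 69.2 in WT and 50.1, 61.4 and 72.7 in KO. Its fold change was -0.0070 ± 0.14 (SE), a sign that turned under both rescalings to equal totals. The inhibitors Ormdl1, Ormdl2 and Ormdl3 had log2 fold changes of 0.04, 0.09 and -0.01, and none passed. Ormdl2 shares 66.7% of its exon bases with Dnajc14 on the opposite strand, and whether reads were counted by strand is not given in the sources used here. Of the 5 tested genes of this branch 3 were higher and 2 lower in KO, with a median log2 fold change of 0.04.

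Kdsr reduces the ketone that serine palmitoyltransferase makes. The gene lies on the minus strand of chromosome 1 from 106720459 to 106759727 (ENSMUSG00000009905.5, GRCm38). Its signal was 37.4, 72.6 and 84.9 in WT and 35.0, 38.5 and 69.8 in KO. Values fell into a lower run of 35.0 to 42.3 in 7 libraries and an upper run of 66.3 to 84.9 in 5. The upper run held 4 WT libraries and KO replicate 3, so that each run held libraries of both genotypes. The log2 fold change was -0.56 ± 0.23 (SE), with a 95% confidence interval of -1.05 to -0.06 (limma, unadjusted p = 0.0309, adjusted p = 0.9996; two-sided exact permutation test, p = 0.0411), and every KO library was below the WT median. The unadjusted p stayed under 0.05 with either other pseudocount, without a filter, with a filter at a mean signal of 50, with quantile normalization and without trend. It did so in only 4 of the 12 fits that leave out 1 library. The losses came without WT replicates 3, 4, 6 and 7 and without KO replicates 2, 4, 5 and 7, each left out alone, with unadjusted p from 0.0517 to 0.0736 in limma. Either rescaling to equal totals also lost it (limma, unadjusted p of 0.117 and 0.0730). With WT replicate 3 and KO replicate 7, the libraries low in Y-linked transcripts, left out together, the log2 fold change was -0.46 (limma, unadjusted p of 0.101).

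Cers6, the palmitoyl-chain ceramide synthase, lies on the plus strand of chromosome 2 from 68861441 to 69114282 (ENSMUSG00000027035.10, GRCm38). Its signal was 7.10, 12.8 and 19.6 in WT and 13.5, 23.9 and 41.1 in KO. Every KO library was above the WT median and 4 of 6 were above the highest WT library, WT replicate 7, while KO replicates 2 and 4 lay within the WT range. The log2 fold change was 0.84 ± 0.29 (SE), with a 95% confidence interval of 0.21 to 1.46 (limma, unadjusted p = 0.0117, adjusted p = 0.9996; two-sided exact permutation test, p = 0.0195). The unadjusted p stayed under 0.05 in all 12 fits without 1 library, where the log2 fold change ran from 0.67 to 0.98, and in all other settings that kept Cers6 in the test. By unadjusted p Cers6 had rank 63 of 8887 genes and Kdsr rank 200. The share of Cers6 was also taken in the summed per-kb signal of the 4 ceramide synthases among the members, without Cers1 and Cers3. It was 3.15, 6.00 and 8.05% in WT (lowest, median, highest) and 6.31, 10.1 and 16.4% in KO, so the groups overlapped. The share uses the same Cers6 signal as the fold change and is not a further test.

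The other genes of ceramide synthesis did not pass. Cers2 had a log2 fold change of -0.14 ± 0.15 (SE), Cers5 of -0.02 ± 0.19 and the dihydroceramide desaturase Degs1, which introduces the double bond of ceramide, of 0.18 ± 0.31. Cers4 had a log2 fold change of 0.30 ± 0.28 (SE), where KO replicate 7 reached a signal of 72.5 and the other KO libraries 24.0 to 41.4. Over the 6 genes of the branch 3 were higher and 3 lower, with a median of 0.08.

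**Figure D4:**
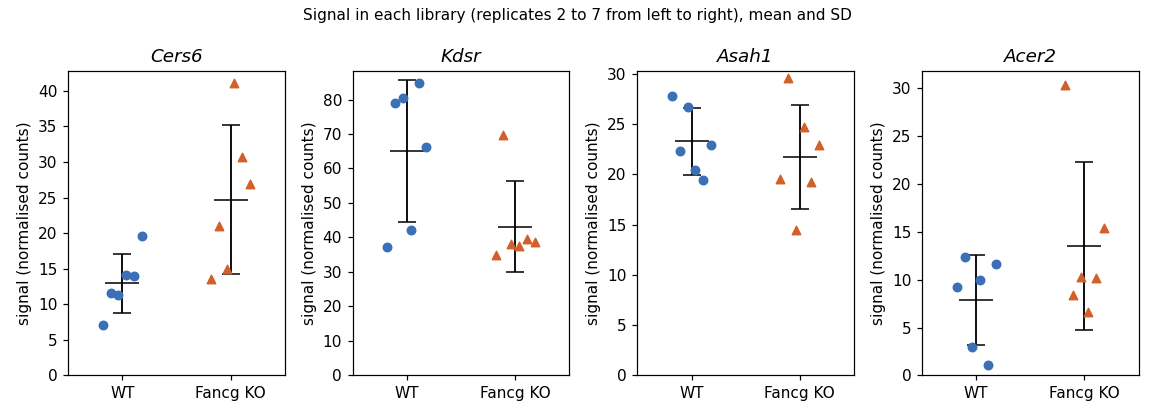
Signal (vertical axis, normalised counts, linear from 0) of Cers6, Kdsr, Asah1 and Acer2 in each library, with circles for WT, triangles for KO, replicates 2 to 7 from left to right, and the mean and SD of 6 libraries in black. In Kdsr, KO replicate 3 sits at 69.8 and the other KO libraries between 35.0 and 39.5, and in Acer2 KO replicate 2 sits at 30.4.

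Asah1, acid ceramidase, was the member of most interest to the study. It lies on the minus strand of chromosome 8 from 41340197 to 41374773 (ENSMUSG00000031591.14, GRCm38). Its signal was 19.5, 22.6 and 27.8 in WT and 14.4, 21.2 and 29.5 in KO. Both the lowest and the highest library were KO, and 3 of 6 KO libraries were on each side of the WT median. The log2 fold change was -0.12 ± 0.19 (SE), with a 95% confidence interval of -0.53 to 0.30 (limma, unadjusted p = 0.558; two-sided exact permutation test, p = 0.50). Without each library in turn it ran from -0.21 to -0.01. No difference in Asah1 was detectable at this depth.

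The remaining ceramidases varied widely between mice. Acer2, an alkaline ceramidase of the Golgi, had a signal of 1.07, 9.64 and 12.4 in WT and 6.60, 10.2 and 30.4 in KO. WT replicates 4 and 6 were lowest, KO replicate 2 was highest, and the medians were close. The log2 fold change was 0.81 ± 0.49 (SE; limma, unadjusted p = 0.116) and depended on single libraries, at 0.45 without WT replicate 6. Without KO replicate 2 Acer2 fell below the filter, and over the other 11 fits the log2 fold change ran from 0.45 to 0.98. Acer3 had 40.3, 51.9 and 99.3 in WT and 22.8, 47.8 and 109.7 in KO, a log2 fold change of -0.11 ± 0.34 (SE). High libraries (WT replicate 3, KO replicates 5 and 6) occurred in both groups, and without the 2 libraries low in Y-linked transcripts the fold change was 0.18. The neutral ceramidase Asah2 had a signal of 21.5 to 43.5 in 9 libraries and of 64.6 to 104.8 in the other 3, KO replicates 2 and 3 and WT replicate 7, and a log2 fold change of 0.14 ± 0.39 (SE).

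Members that make, break down, export or sense sphingosine 1-phosphate did not pass. Sphk2 had a signal of 13.1, 21.4 and 25.8 in WT and 19.6, 23.3 and 27.7 in KO. The groups overlapped, and the log2 fold change was 0.20 ± 0.19 (SE; limma, unadjusted p = 0.315). Sphk2 shares 13% of its exon bases with Dbp and 8.97% with Rpl18, both on the opposite strand. Sphk1 was listed between 0 and 4.60, at about 0 to 3.82 reads per library, too few to compare. Sgpp1 had a signal of 52.9, 72.2 and 91.2 in WT and 57.9, 71.4 and 123.3 in KO, where KO replicate 4 stood alone at the top. Its log2 fold change was 0.07 ± 0.20 (SE), and -0.08 without KO replicate 4. The lyase Sgpl1, which removes sphingosine 1-phosphate for good, the exporter Spns2 and the receptor S1pr1 had log2 fold changes of -0.17, -0.10 and -0.08. The branch median was -0.08 over 5 tested of 7 genes, of which 2 were higher and 3 lower in KO.

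In the sphingomyelin branch the transfer protein Col4a3bp, which carries ceramide from the endoplasmic reticulum to the Golgi, had the highest signal. It was 73.6, 84.9 and 99.5 in WT and 53.6, 92.0 and 150.8 in KO. The KO libraries spread on both sides of the WT range, and the log2 fold change was 0.14 ± 0.20 (SE), or -0.04 without the 2 libraries low in Y-linked transcripts. Smpd1, the lysosomal acid sphingomyelinase, had 12.4, 15.8 and 25.8 in WT and 13.3, 19.3 and 36.5 in KO. KO replicates 5 and 7 were above all WT libraries and the other 4 within their range, with a log2 fold change of 0.30 ± 0.28 (SE; limma, unadjusted p = 0.302). It was 0.15 without KO replicate 5, 0.16 without KO replicate 7 and 0.07 without WT replicate 3 and KO replicate 7 together. Sgms1, Smpd4, a neutral sphingomyelinase, and Cerk, the kinase that makes ceramide 1-phosphate, had log2 fold changes of -0.24, -0.27 and -0.09. The branch median was -0.09, with 2 higher and 3 lower of 5 tested.

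Glycosphingolipid synthesis starts with Ugcg, glucosylceramide synthase. Its signal was 16.1, 21.7 and 33.5 in WT and 18.9, 22.2 and 28.4 in KO, with all KO libraries inside the WT range. The log2 fold change was -0.03 ± 0.19 (SE), and its sign turned under both rescalings to equal totals. B4galt6 had 51.0, 111.6 and 151.2 in WT and 63.5, 93.1 and 214.0 in KO. KO replicate 4 was highest, and the log2 fold change was 0.0011 ± 0.30 (SE), with the sign turned by quantile normalization. The sialyltransferase St3gal5 was below the filter, listed between 0 and 11.97.

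The 9 genes of glycosphingolipid breakdown had a median log2 fold change of -0.10, with 4 higher and 5 lower in KO. Gba2, a glucosylceramidase outside the lysosome, had a signal of 27.9, 39.0 and 67.9 in WT and 30.9, 56.1 and 70.9 in KO. All but 1 of the KO libraries were above the WT median, and the log2 fold change was 0.36 ± 0.24 (SE; limma, unadjusted p = 0.156). Its unadjusted p fell under 0.05 without WT replicate 7 and without KO replicate 2, with log2 fold changes of 0.51 and 0.51. Psap had 195, 243 and 288 in WT and 200.2, 229 and 243 in KO. All 6 KO libraries were below the WT median, though the highest of them only just (242.7 against 242.9), and the lowest library was WT. The log2 fold change was -0.10 ± 0.14 (SE; limma, unadjusted p = 0.479). Galactosylceramidase, encoded by Galc, was also below the WT median in all 6 KO libraries, the highest again only just (37.06 against 37.23). Its log2 fold change was -0.27 ± 0.19 (SE; limma, unadjusted p = 0.179). Kdsr and Cers6 likewise had every KO library on the same side of the WT median. The share of all genes with this pattern was not computed. The sialidase Neu1 and the arylsulfatase Arsa had log2 fold changes of 0.35 and 0.31, the subunit Hexa of 0.16, the activator Gm2a of -0.13 and Glb1 of -0.16.

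Gla had the widest spread within groups of all members tested, an SD of 1.10 on the log2 scale. Its signal was 3.18 to 9.94 in 8 libraries and 21.7 to 31.8 in 4, WT replicates 5, 6 and 7 and KO replicate 6. The split did not follow genotype, and the log2 fold change was -0.24 ± 0.55 (SE). Taking the 10 lysosomal members together, 4 were higher and 6 lower with a median of -0.11, while the 26 tested members outside the lysosome were 13 higher and 13 lower with a median of -0.0029.

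A further 45 names of sphingolipid genes were listed, of which 43 were found in the table and 17 passed the filter. None of the 17 passed the adjusted threshold or had an unadjusted p under 0.05, 8 were higher and 9 lower in KO, and their median log2 fold change was -0.04. Leaving out WT replicate 6 or KO replicate 2 brought 1 of them under an unadjusted p of 0.05. The largest difference was that of Mfsd2b, the exporter of sphingosine 1-phosphate in erythroid cells and platelets. Its median signal was 42.2 in WT and 68.4 in KO, with a log2 fold change of 0.53 ± 0.26 (SE; limma, unadjusted p = 0.0540; two-sided exact permutation test, p = 0.0887). The receptors S1pr3 and S1pr4 had log2 fold changes of 0.10 and -0.04.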

How the data were processed

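RNA-seq libraries from sorted LSK cells of 12 mice, 6 WT and 6 Fancg KO, were analysed. The authors deposited a table of signal, taken from its name and values as estimated counts divided by 1 size factor per library. Kallisto is named in the submitters' processing notes, and the mouse build and annotation are not given in the sources used here. Columns were matched by library title, and 0 were left unused. No test for read counts was used, because only 9.97% to 11.1% of values came out as whole reads (tolerance 0.001). Genes averaging a signal of 10 or more were tested on log2(signal + 1) with limma 3.58.1 in R 4.3.3 (trend, two-sided, Benjamini-Hochberg over 8887 genes). Exact permutation tests used all 924 divisions of the libraries, with a smallest p of 0.0022. Fancg is below the filter and has the exact test alone. Branch medians are descriptions. Positions and lengths are from GENCODE M21 (GRCm38), in which all 35999 names were found. The limma step was tested on simulated data.

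Members, branches and lists were chosen with earlier results of these data known. Values by library are given for Asah1, for members with an unadjusted p under 0.05, and for the member of each branch with the largest absolute fold change or the highest mean signal. Other members have their level or fold change only, and some genes of the further list are not reported here. Asah2, Gla, Galc, Cers4 and Mfsd2b were described further after their values were seen. Alternatives were a different pseudocount, filter or normalization, no trend in limma, the replicate number as a block, each library left out, and both libraries low in Y-linked transcripts left out.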

Additional observations from a re-analysis of the deposited data

Results flagged for a closer look

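In each group of 6 libraries the highest or lowest value was compared with the range of the group. Of 72 groups (36 members, 2 genotypes) 10 held a library far from the others. If values followed a normal distribution, about 1 in 20, or 3.6, would do so by chance. The comparison was made on signal, not on the log2 scale used for limma. Most of the values far from the others were high, and the shape of the distribution was not tested. The count of 10 therefore cannot be judged against 3.6, and the share over all genes tested was not computed.

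The signal of Kdsr was 69.8 in KO replicate 3 and 35.0 to 39.5 in the other KO libraries. For Cers4 it was 72.5 in KO replicate 7 against 24.0 to 41.4, and for Galc 20.3 in the same library against 31.6 to 37.1. KO replicate 4 had a Sgpp1 signal of 123.3 against 57.9 to 82.1 and a B4galt6 signal of 214.0 against 63.5 to 115.2. KO replicate 2 had an Acer2 signal of 30.4 against 6.60 to 15.4, and KO replicate 6 a Gla signal of 29.5 against 5.35 to 9.94. Among the WT libraries, Asah2 was at 104.8 in replicate 7 against 21.7 to 43.5. In WT replicate 3, Acer3 was at 99.3 against 40.3 to 56.6 and S1pr1 at 5.79 against 14.4 to 18.4.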

How the results depend on the processing

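No member and no other gene passed the adjusted threshold in any setting. The count of members with an unadjusted p under 0.05 was 2, and 1 with a filter at a mean signal of 50 (14 members tested, Cers6 not among them) and 1 after either rescaling to equal totals. It ran from 1 to 2 without 1 library. With the filter at 50, 4 members had a log2 fold change above 0 and the ceramide synthesis median was -0.56, that of Kdsr alone. With the replicate block, Kdsr and Cers6 had an unadjusted p of 0.0109 and 0.0031 (limma). There the other pathway genes with an unadjusted p under 0.05 were 1, and genes under that threshold were 476 in place of 326. Correlations of the log2 values themselves lay between 0.84 and 0.93 for different libraries. Pairing was looked at on another scale, on which same-numbered libraries correlated at 0.0862 to 0.36 (mean 0.20, against -0.04 for other numbers). On that scale 9 of 12 libraries correlated best with their own number, which hints at pairing. Only 4 of 6 pairs were above 0.1 and no source says what a number marks, so the block was not used for the main values. Over same-numbered pairs Kdsr was lower in KO in 6 of 6 and Cers6 higher in 6 of 6. Both genes were picked by their p in the same data, so these pair counts are not a further test. Neu1 was also higher in KO in 6 of 6 (limma without the block, unadjusted p = 0.208). The share over all genes was not computed. Without 1 library, the other pathway genes ran from 0 to 1.

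Members with small fold changes turned sign. Rescaling to equal totals, with and without the 15 highest genes, gave 0.073 and 0.030 for Sptssa and 0.052 and 0.010 for Ugcg. Quantile normalization gave -0.031 for B4galt6. Leaving out both libraries low in Y-linked transcripts gave 0.18 for Acer3, -0.036 for Col4a3bp and 0.0040 for Ugcg, and 2 members under the unadjusted threshold, Cers6 and Smpd4. Without 1 library, log2 fold changes ran from -0.069 to 0.052 for Sptssa, -0.12 to 0.083 for Ugcg, -0.22 to 0.13 for B4galt6, -0.33 to 0.11 for Acer3, -0.077 to 0.14 for Sgpp1 and -0.36 to 0.067 for Fancg, which was above 0 only without WT replicate 7. The causes were not tested. Fancg has no value with quantile normalization, without trend, with the block or with the filter at 50. With the longest transcript as length, levels per kb were higher for 38 of 43 members and equal for 5, such as 8.15 for Asah1 and 21.7 for Sgpp1. Signals near the filter rest on few reads, which limits what can be detected.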
